A study of Homo sapiens with 6 samples.

Results

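Metallothioneins are small cysteine-rich proteins that bind zinc and copper, and cadmium when it is present, and so buffer these metals in the cell. Their genes are switched on through the zinc-sensing factor MTF1, which binds metal response elements in their promoters, and several of them also answer to glucocorticoids and to oxidative stress. In the liver they are known as sensitive reporters of zinc supply. The 10 genes described here, MT1A, MT1B, MT1E, MT1F, MT1G, MT1H, MT1M, MT1X, MT2A and MT3, were chosen by symbol, and all 10 were found among the 20811 genes of the table.

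The transcripts were measured in HuCCT1, a human intrahepatic cholangiocarcinoma (iCCA) cell line. HuCCT1/CD90+ cells were transduced with the lentivirus THY1-CMV-GFP, which carries THY1, the CD90 gene, while HuCCT1/CD90− cells received the Lenti-CMV-GFP-2A-Puro-Blank Lentivirus, both at an MOI of 40, and both lines were kept in RPMI with serum. Each line gave 3 libraries, and whether these come from separate cultures, and whether a line is a single clone, is not given in the sources used here, so that the p-values measure only the spread between these libraries. Each gene was read from a single amplicon of the Ion AmpliSeq Transcriptome panel, and values are RPM, the read share of a gene scaled to a fixed library total. The libraries held 8587634 to 10551516 reads, so that 3 reads, the detection floor used for a library, stood for 0.284 to 0.349 RPM. THY1 had 0, 0.107 and 0 RPM in HuCCT1/CD90− replicates 1 to 3 and 46.6, 51.8 and 73.8 RPM in HuCCT1/CD90+. Of the 8 markers of biliary epithelium none was at the floor, and together they stood at 8270 to 9380 RPM in HuCCT1/CD90− against 11007 to 11755 RPM in HuCCT1/CD90+, whereas 5 of 6 hepatocyte markers were at the floor in both lines. The sixth, the apolipoprotein gene APOA1, averaged 3.24 ± 1.33 RPM in HuCCT1/CD90− against 0.221 ± 0.215 RPM in HuCCT1/CD90+ (log2 fold change -1.76, adjusted p = 0.026 with limma), a call kept with the replicate block (0.041) and lost without any 1 of 5 libraries (0.067 to 0.090).

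All 10 genes lie within 95.1 kb of chromosome 16, from position 56589074 to 56684196 of GRCh38 in the GENCODE 29 annotation. MT3 begins the cluster, MT2A (56608199 to 56609497) follows, and MT1X (56682424 to 56684196) closes it. MT1G (56666731 to 56668065) is the only one of them on the minus strand. RefSeq promoter sequences (GRCh38.p14) were at hand for 4 of the 10 genes, and they are shown because MT2A and MT1X are expressed and stood lower in HuCCT1/CD90+, whereas MT1B and MT1H had almost no reads. Each sequence holds the 250 bases before the RefSeq start on the plus strand, and capitals mark the cores of metal response elements, TGCACNC or TGCGCNC, on either strand. The RefSeq starts of MT2A and MT1X lie inside the longer gene models of GENCODE.
MT2A, chr16:56608334-56608583: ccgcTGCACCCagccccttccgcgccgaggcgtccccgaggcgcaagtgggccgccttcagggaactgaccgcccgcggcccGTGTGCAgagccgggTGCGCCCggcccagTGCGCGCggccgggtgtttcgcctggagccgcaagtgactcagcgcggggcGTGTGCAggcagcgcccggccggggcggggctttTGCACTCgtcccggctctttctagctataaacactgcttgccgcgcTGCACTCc
MT1X, chr16:56682220-56682469: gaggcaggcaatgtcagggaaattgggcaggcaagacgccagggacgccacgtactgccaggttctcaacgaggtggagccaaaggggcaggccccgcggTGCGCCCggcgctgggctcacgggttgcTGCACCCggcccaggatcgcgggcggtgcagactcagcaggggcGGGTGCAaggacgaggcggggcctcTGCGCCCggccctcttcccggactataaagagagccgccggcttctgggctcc
MT1B, chr16:56651636-56651885: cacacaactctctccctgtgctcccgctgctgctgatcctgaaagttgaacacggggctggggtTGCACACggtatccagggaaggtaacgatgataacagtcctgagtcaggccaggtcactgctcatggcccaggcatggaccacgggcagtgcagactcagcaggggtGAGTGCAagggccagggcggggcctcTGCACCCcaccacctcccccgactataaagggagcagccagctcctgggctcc
MT1H, chr16:56669564-56669813: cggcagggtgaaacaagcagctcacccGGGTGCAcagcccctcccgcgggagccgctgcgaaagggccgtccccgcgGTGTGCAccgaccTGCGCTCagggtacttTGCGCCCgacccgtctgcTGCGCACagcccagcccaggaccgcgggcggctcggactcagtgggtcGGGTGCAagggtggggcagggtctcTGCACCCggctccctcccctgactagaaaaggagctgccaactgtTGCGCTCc
The MT2A promoter held 7 such cores, that of MT1X 4, that of MT1B 3 and that of MT1H 8, and none of these cores overlapped another. Of all 35116 promoter windows of this length, 24.8% held at least 1 core, 1.58% at least 3 and 0.370% at least 4. The core of the antioxidant response element, TGACNNNGC, was found once each in the windows of MT2A, MT1X and MT1B and was present in 10.9% of all windows. MT1H, with the most cores of the 4, had 0 to 2 reads in a library. These matches are of letters only and do not show that a factor was bound.

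Most of the metallothionein transcripts that could be measured had lower values in HuCCT1/CD90+ than in HuCCT1/CD90−, and few of these differences passed the test. The sum of the 10 genes was 2070, 3160 and 2453 RPM in HuCCT1/CD90− replicates 1 to 3 and 1614, 2015 and 1840 RPM in HuCCT1/CD90+. The lines did not overlap, and the means were 2561 ± 553 and 1823 ± 201 RPM (SD, n = 3 each, not tested). MT2A made up most of this sum, and without it the other 9 genes summed to 181 ± 34.8 and 115 ± 14.0 RPM. The median log2 fold change of the 10 genes was -0.32, against 0 over all genes. In this bulk RNA, fewer cells that carry a transcript and less of it in each cell cannot be told apart.

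Genes were called when limma gave a Benjamini-Hochberg adjusted p, taken over the whole table, of at most 0.05 and the fold change was at least 1.5, both on log2(RPM + 1), a scale that understates the change of weakly expressed genes. By this rule 1 of the 10, MT1G, was lower and none was higher in HuCCT1/CD90+, where 7.49% of all genes were called lower and 7.59% higher. At the thresholds of the study, an unadjusted p of at most 0.05 and the same fold change, 4 of the 10 were lower (MT1E, MT1G, MT1M and MT1X) against 9.98% of all genes (20.1% in either direction). None was higher at these thresholds, against 10.1% of all genes, and none was higher at an unadjusted p of at most 0.05 alone. The count of 4 became 1 when HuCCT1/CD90− replicate 2 or 3 was left out, to 2 without HuCCT1/CD90+ replicate 1 and to 2 with the replicate number as a block. In 6 of the 10 genes all 3 HuCCT1/CD90+ libraries lay below all 3 HuCCT1/CD90− libraries, which held for 17.7% of all genes, and in 1, MT1A, they lay above (17.3% of all genes). On whole reads recovered from the RPM values, edgeR, whose filter on low counts removed MT1G and 4 other members, called MT1E and MT1X lower (17.3% of the 12070 genes it tested), and DESeq2 called these and MT1G (14.3% of 14399 genes).

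**Figure D1:**
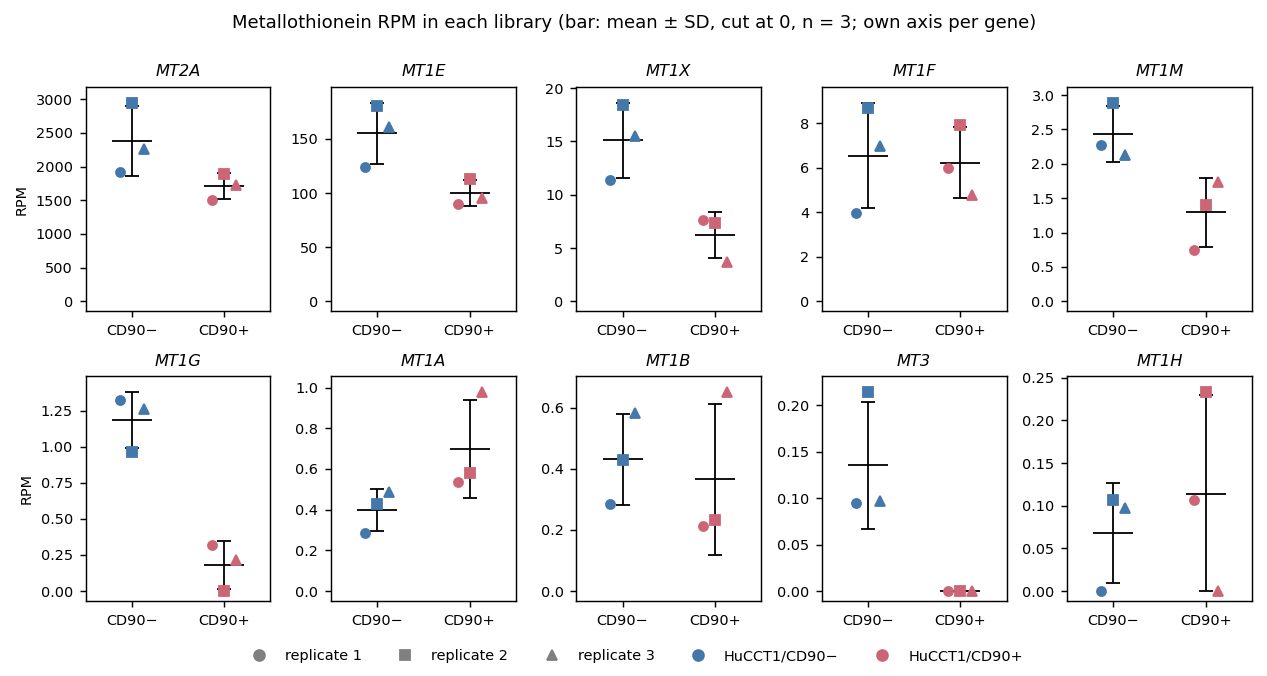
RPM (vertical axes, a separate scale from 0 for each gene) of the 10 metallothioneins in the 3 HuCCT1/CD90− (blue) and 3 HuCCT1/CD90+ (red) libraries, with replicate numbers as symbols, the mean as a long bar and ± 1 SD, cut at 0, as whiskers. MT2A, MT1E, MT1X, MT1M, MT1G and MT3 do not overlap between the lines and are lower in HuCCT1/CD90+, whereas MT1F, MT1B and MT1H overlap.

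MT2A encodes the metallothionein that is used most widely across tissues. It had 1926, 2948 and 2265 RPM in HuCCT1/CD90− replicates 1 to 3 and 1508, 1884 and 1732 RPM in HuCCT1/CD90+, which is 14065 to 27548 reads in a library. The lines did not overlap, although the highest HuCCT1/CD90+ library, replicate 2, came close to the lowest HuCCT1/CD90− library, replicate 1. It gave a log2 fold change of -0.46 with an SE (standard error) of 0.19 and a 95% confidence interval of -0.97 to 0.049, short of the minimum fold change and of the threshold (adjusted p = 0.20 with limma). With edgeR its adjusted p was 0.016 at a log2 fold change of -0.48, again under the minimum fold change.

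MT1E, one of the MT1 isoforms, stood at 124, 180 and 161 RPM in HuCCT1/CD90− and at 90.3, 113 and 95.6 RPM in HuCCT1/CD90+. Every HuCCT1/CD90+ library was below every HuCCT1/CD90− library. The means were 155 ± 28.5 and 99.7 ± 12.0 RPM (SD, n = 3 for both), a log2 fold change of -0.62 (SE 0.18; limma, adjusted p = 0.084). Without HuCCT1/CD90− replicate 1 it passed (adjusted p = 0.047), and with the replicate block it did not (0.056). On recovered reads it passed with edgeR (adjusted p = 0.0028) and with DESeq2 (adjusted p = 0.00091).

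MT1X had the largest difference of the family on log2(RPM + 1). It was 11.4, 18.4 and 15.5 RPM in HuCCT1/CD90− and 7.61, 7.34 and 3.69 RPM in HuCCT1/CD90+, where replicate 3 with 34 reads was the lowest. The lines were well apart, with means of 15.1 ± 3.53 and 6.21 ± 2.19 RPM. The log2 fold change was -1.19 (SE 0.32, 95% confidence interval of -2.05 to -0.32, adjusted p = 0.077 with limma, 0.00062 from edgeR). In the fit blocked on replicate number the adjusted p rose to 0.17.

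MT1G was the only member called by limma, and its level was low. It had 14, 9 and 13 reads in HuCCT1/CD90− and 3, 0 and 2 reads in HuCCT1/CD90+, or 1.18 ± 0.194 and 0.180 ± 0.164 RPM (SD, n = 3 each). All HuCCT1/CD90+ libraries were at or under the floor. The ratio of the summed reads, 36 against 5 and corrected for depth, was 6.47 (95% interval of counting from 2.53 to 21.1, exact Clopper-Pearson, which covers counting error only). The log2 fold change was -0.89 (SE 0.13, adjusted p = 0.017, or 0.021 with the replicate block). Leaving out single libraries ended the call for HuCCT1/CD90− replicate 1 (adjusted p = 0.058) and replicate 3 (0.067) and for HuCCT1/CD90+ replicate 3 (0.064). A pseudocount of 0.1 RPM ended it too (adjusted p = 0.065), and MT3, with 0 to 2 reads, was then the member called (0.027). With a pseudocount of 5 RPM the fold change of MT1G on that scale was under 1.5.

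MT1M stood at 2.27, 2.89 and 2.13 RPM in HuCCT1/CD90− and at 0.750, 1.40 and 1.74 RPM in HuCCT1/CD90+, from 7 to 27 reads in a library. These did not overlap, and the log2 fold change was -0.60 (SE 0.20, adjusted p = 0.13 with limma, 0.059 from edgeR). MT1F was 3.98, 8.67 and 6.99 RPM in HuCCT1/CD90− and 6.0, 7.92 and 4.77 RPM in HuCCT1/CD90+, and the HuCCT1/CD90+ values lay within the range of the other line. Its log2 fold change was -0.031 (95% confidence interval of -0.88 to 0.82), which leaves room for a difference in either direction, and its sign turned under quantile normalization (0.034).

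The remaining 4 members were at or near the floor. MT1A had 3, 4 and 5 reads in HuCCT1/CD90− and 5, 5 and 9 in HuCCT1/CD90+, and is the only member whose HuCCT1/CD90+ libraries all lay above. Its summed reads gave a ratio of 1.76 (95% interval of counting from 0.812 to 3.98), so that no difference was detectable at this depth (adjusted p = 0.24 with limma). MT1B had 2 to 6 reads in a library and a log2 fold change of -0.077, with overlapping lines. MT3, a form known from brain, had 1, 2 and 1 reads in HuCCT1/CD90− and 0 in each HuCCT1/CD90+ library, and MT1H had 0 to 2 reads. MT3 and MT1H were at the floor in both lines, and their fitted differences, which rest on at most 2 reads in a library, are not read as folds.

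**Figure D2:**
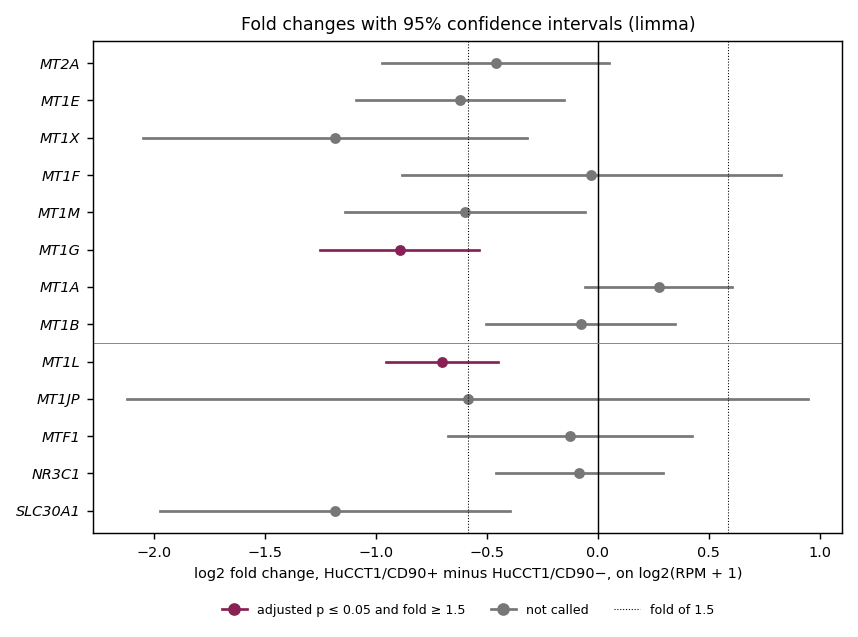
Log2 fold change between HuCCT1/CD90+ and HuCCT1/CD90− on log2(RPM + 1) (horizontal axis; a negative value is lower in HuCCT1/CD90+) with 95% confidence intervals of the limma fit, for the 8 metallothioneins above the floor in at least 1 line, over the grey line, and for MT1L, MT1JP, MTF1, NR3C1 and SLC30A1 under it. Purple marks the called genes, MT1G and MT1L, and dotted lines a fold change of 1.5, and the intervals of MT1E, MT1X, MT1M and SLC30A1 also lie below 0.

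The members are alike in sequence, and reads of one can be placed on another. In the GENCODE 29 transcripts the longest identical run that a member shares with another metallothionein gene was from 38 bases for MT1B to 109 bases for MT1H, with 96 bases shared by MT1G and MT1X and 85 by MT1E and MT1G. The positions of the amplicons are not given in the sources used here, so that values of single MT1 genes are uncertain in this respect. Of 8 further metallothionein genes and pseudogenes 5 were in the table. MT1L, a copy with a broken reading frame, stood at 91.6, 85.6 and 98.6 RPM in HuCCT1/CD90− and at 50.0, 59.2 and 59.5 RPM in HuCCT1/CD90+. The lines did not overlap and the fall passed the test (log2 fold change -0.70, SE 0.095, adjusted p = 0.013 with limma), also with each library left out, but not with the replicate block (adjusted p = 0.056), where MT1JP passed instead (adjusted p = 0.048). MT1JP was 7.98 ± 4.25 and 5.15 ± 3.45 RPM (adjusted p = 0.59), MT1DP had a log2 fold change of -0.0041, and MT4 and MT1IP had no reads.

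Ratios between members are given as values. They are differences on log2(RPM + 1), which understates the change of weakly expressed genes, and not plain log2 ratios. Relative to MT2A of the same library, MT1X was lower in HuCCT1/CD90+ by a further 0.72 on this scale. The difference between both genes was -7.28, -7.25 and -7.10 in HuCCT1/CD90− and -7.45, -7.82 and -8.53 in HuCCT1/CD90+. These values do not overlap. The exact permutation test cannot go below p = 0.10 with 3 against 3 libraries, so that it says nothing for or against a difference here. The difference was -0.16 for MT1E relative to MT2A, without overlap, and 0.43 for MT1F, with overlap. Within pairs of libraries with the same replicate number, MT2A was lower in HuCCT1/CD90+ by 0.35, 0.65 and 0.39 on log2(RPM + 1) for numbers 1, 2 and 3. MT1E, MT1G, MT1M, MT1X and MT3 were lower in 3 of 3 pairs as well. For each of these genes this follows from lines that do not overlap, whatever the pairing, so it adds no support of its own. Replicate 2 was the highest library of its line for MT2A, MT1E and MT1F in both lines.

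Genes around the cluster also tended to lower values in HuCCT1/CD90+. Of 26 protein-coding genes in the table that lie within 1 Mb of the cluster and are not metallothioneins, 3 were called lower and 2 higher (limma), against 7.49% and 7.59% of all genes. In 11 of the 26 the 3 HuCCT1/CD90+ libraries lay below the others, against 17.7% of all genes. Among genes averaging 1 RPM or more, the 17 neighbours had a median log2 fold change of -0.40, the 484 protein-coding genes of chromosome 16 one of -0.31 and all 12062 genes one of -0.0086. Nearest to the cluster on its MT3 side, BBS2, OGFOD1 and NUDT21 had log2 fold changes of -0.35, -0.68 and -0.27 (adjusted p = 0.34, 0.029 and 0.18). On the MT1X side, NUP93, a nuclear pore gene, was 132 ± 15.1 and 87.9 ± 6.65 RPM (log2 fold change -0.58, adjusted p = 0.030, just short of the minimum fold change), and SLC12A3 was at the floor. HERPUD1, a gene of the endoplasmic reticulum stress response, rose from 118 ± 22.3 RPM up to 240 ± 30.6 RPM (a log2 fold change of 1.03, adjusted p = 0.028). With 1 library left out, 0 to 2 neighbours were called, with 0 without HuCCT1/CD90− replicate 3 or HuCCT1/CD90+ replicate 2, and both OGFOD1 and HERPUD1 lost their calls without HuCCT1/CD90+ replicate 3 (adjusted p = 0.099 and 0.098).

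An alternative chosen after these values were seen took the change of these 17 neighbours from each library. Of these 17 genes 16 had a negative value, where the median over the 484 protein-coding genes of chromosome 16 was itself -0.31. The share of negative values over the whole chromosome was not counted. After this step the log2 fold change of MT2A was -0.042, that of MT1E -0.21, that of MT1X -0.81 and that of MT1G -0.76. MT1G kept its call (adjusted p = 0.030), MT1X had an adjusted p of 0.18, and of the members 1 instead of 4 passed the thresholds of the study. Why the neighbours were lower was not tested.

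**Figure D3:**
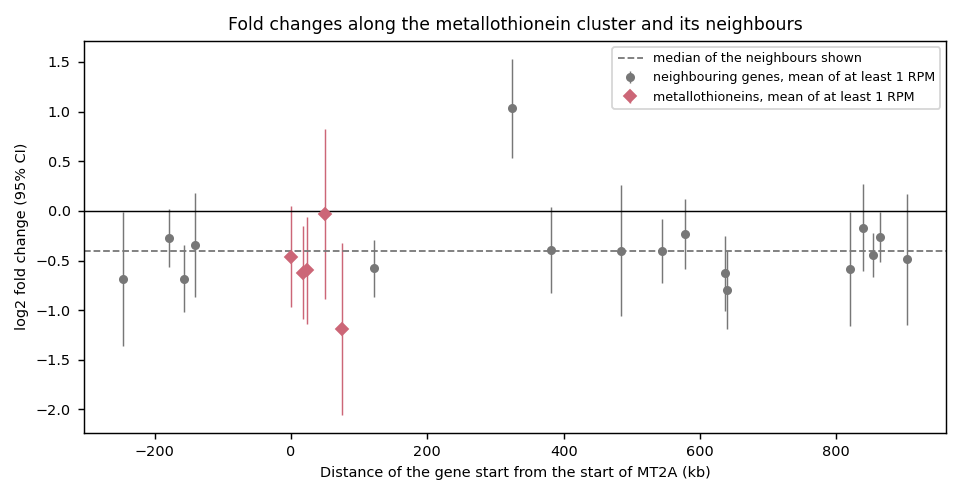
Log2 fold change on log2(RPM + 1) with its 95% confidence interval (vertical axis) against the distance of the gene start from the start of MT2A in kb (horizontal axis), for metallothioneins (red) and other protein-coding genes (grey) with a mean of at least 1 RPM. Of the 17 neighbours shown 16 lie below 0, with a median of -0.40 (dashed), and MT1X lies lower than any neighbour. The 484 protein-coding genes of chromosome 16 at the same minimum mean had a median of -0.31 (not shown).

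No regulator of the family passed the test. MTF1 was 48.9, 42.5 and 49.6 RPM in HuCCT1/CD90− and 50.8, 32.0 and 48.3 RPM in HuCCT1/CD90+ (log2 fold change -0.13, 95% confidence interval of -0.68 to 0.42, adjusted p = 0.83). NR3C1, the glucocorticoid receptor gene, was 43.3 ± 4.65 and 40.9 ± 5.81 RPM in the lines (log2 fold change -0.084, adjusted p = 0.85). The signs of both turned when HuCCT1/CD90+ replicate 2 was left out, to 0.078 for MTF1 and to 0.034 for NR3C1. Of 9 regulators none was called by limma, edgeR or DESeq2, where these called 15.1%, 34.8% and 29.4% of the genes they tested. With 9 genes, a count of none is not read as a result about the regulators. Only NFE2L2, which encodes NRF2, had an unadjusted p of at most 0.05, and its lines did not overlap (194.8 ± 30.1 and 146 ± 9.11 RPM, log2 fold change -0.41, adjusted p = 0.12). Its adjusted p was 0.023 with edgeR and 0.018 with DESeq2, where it was under the minimum fold change.

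The zinc exporter SLC30A1 (ZnT1), which MTF1 also induces, was lower in each HuCCT1/CD90+ library. It had 102, 188 and 192 RPM in HuCCT1/CD90− and 65.3, 61.7 and 75.5 RPM in HuCCT1/CD90+. HuCCT1/CD90− replicate 1 was the lowest of its line, as for MT2A, MT1E, MT1X and MT1F. MT1G, however, was highest in that library, and MT1M was lowest in replicate 3. The pattern is not particular to metal genes, since the glucocorticoid-responsive gene KLF9 was lowest in replicate 1 too (11.7 RPM against 34.3 and 27.8). Its log2 fold change of -1.19 had an SE of 0.30 and an adjusted p of 0.061 with limma, and it passed with edgeR (adjusted p = 3.0e-05). In limma the adjusted p was 0.12 with the replicate block and ran from 0.0091 to 0.17 with 1 library left out. Of the 10 exporters of the ZnT family limma called 2 lower and none higher, where 7.49% of all genes were called lower and 7.59% higher. With edgeR 3 were lower and with DESeq2 2, against 17.3% and 14.3% of the genes they tested, and both called 1 higher, SLC30A9. SLC30A9, which is counted in this family, averaged 67.1 ± 3.34 RPM in HuCCT1/CD90− against 100.9 ± 1.93 RPM in HuCCT1/CD90+, the opposite direction to SLC30A1, with a log2 fold change of 0.58 just under the minimum (adjusted p = 0.0025 with limma, 0.0020 with edgeR). SLC30A7, which loads zinc into the secretory pathway, fell from 95.3 ± 12.2 RPM down to 52.3 ± 4.86 RPM (a log2 fold change of -0.85, adjusted p = 0.015), and SLC30A4, a vesicular exporter, fell from 3.42 ± 0.602 RPM down to 1.81 ± 0.269 RPM (adjusted p = 0.039, or 0.11 with the replicate block). Without HuCCT1/CD90+ replicate 3 no exporter was called, and without HuCCT1/CD90+ replicate 1 or 2 the count was 1.

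Among the 14 zinc importers of the ZIP family limma called 1 lower and none higher by adjusted p, against 7.49% and 7.59% of all genes, and the median log2 fold change was 0.10. At the thresholds of the study 2 were lower, SLC39A8 and SLC39A10 (1.52 ± 0.367 and 0.508 ± 0.319 RPM, adjusted p = 0.071), and 1 was higher, SLC39A4, where 9.98% of all genes were lower and 10.1% higher. SLC39A8 (ZIP8), which carries zinc, manganese and iron into the cell, had 254, 319 and 307 RPM in HuCCT1/CD90− and 57.8, 41.8 and 45.5 RPM in HuCCT1/CD90+. The lines lay far apart. Its log2 fold change of -2.58 (SE 0.16, adjusted p = 0.0018, or 0.036 with the replicate block) was the largest in size of both zinc transporter families. SLC39A4, the importer of dietary zinc, was 34.0 ± 8.88 and 59.2 ± 5.74 RPM (log2 fold change 0.81, adjusted p = 0.069).

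Genes of copper and iron handling moved in both directions, with 4 of 18 higher and 3 lower (limma), against 7.59% and 7.49% of all genes. With the replicate block 2 were higher and 3 lower, where 5.24% of all genes were higher and 4.86% lower. FTH1, the ferritin heavy chain, fell from 4999 ± 574 RPM down to 2627 ± 173 RPM (a log2 fold change of -0.92, adjusted p = 0.0085), while TFRC, the transferrin receptor, rose from 125 ± 15.3 RPM up to 296 ± 39.4 RPM (a log2 fold change of 1.24, adjusted p = 0.0085). STEAP3, a ferrireductase of the endosome, and CP, the copper-carrying ferroxidase ceruloplasmin, fell with log2 fold changes of -1.32 and -2.27 (adjusted p = 0.0054 and 0.0070). COX17, the copper chaperone of cytochrome c oxidase, rose from 45.7 ± 8.24 RPM up to 155 ± 30.6 RPM (a log2 fold change of 1.74, adjusted p = 0.0095). SLC40A1, the iron exporter ferroportin, and ATP7B, a copper pump, were called higher from at most 20 reads in a library, and neither passed with the replicate block (adjusted p = 0.094 and 0.13). The light chain gene FTL and HMOX1, which breaks down haem, overlapped between the lines (adjusted p = 0.74 and 1.0).

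**Figure D4:**
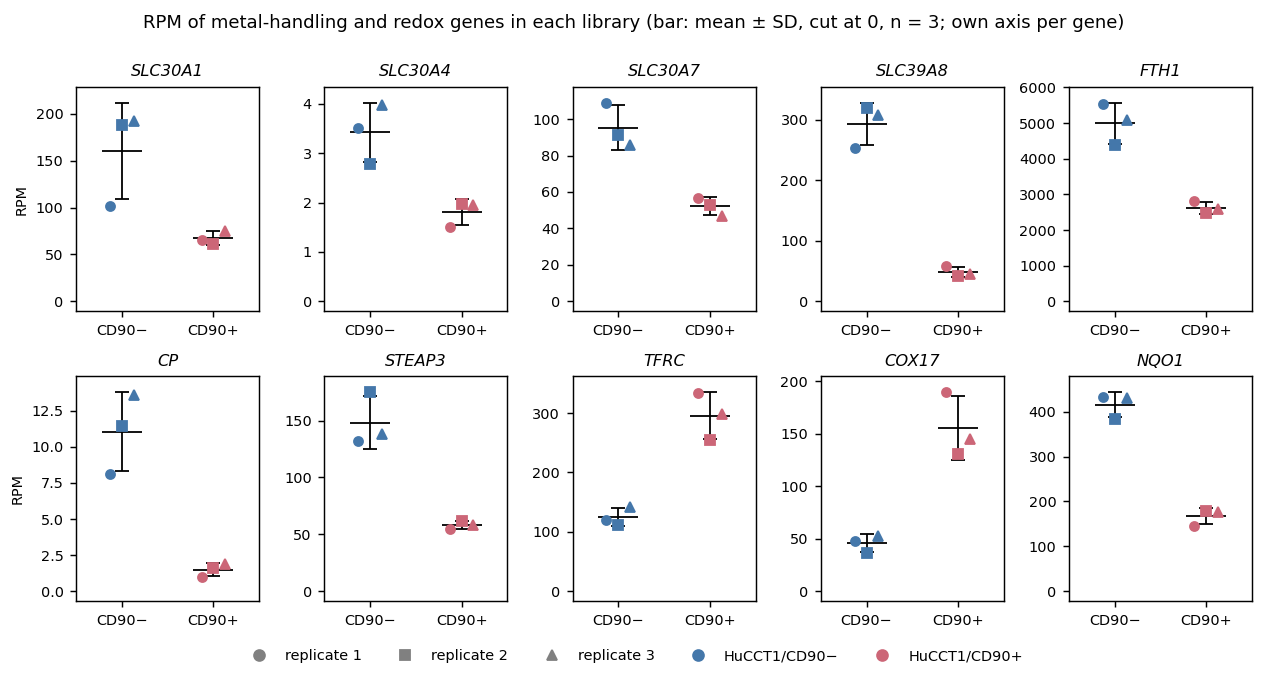
RPM (vertical axes, a separate scale from 0 for each gene) of zinc transporters, iron and copper genes and NQO1 in the 3 HuCCT1/CD90− (blue) and 3 HuCCT1/CD90+ (red) libraries, with replicate numbers as symbols, the mean as a long bar and ± 1 SD as whiskers. The lines do not overlap for any of the 10 genes shown. TFRC and COX17 are higher in HuCCT1/CD90+ and the other 8 are lower.

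Metallothioneins also take part in the answer to oxidants and to glucocorticoids, and both lists were mixed. Of 15 genes of glutathione synthesis and redox defence, limma called 2 lower and 1 higher, with a median log2 fold change of -0.13, where 15.1% of all genes were called in either direction, and the replicate block left 1 call, where it left 10.1% of all genes. NQO1, a quinone reductase and NRF2 target, fell from 416 ± 27.4 RPM down to 167 ± 18.5 RPM (a log2 fold change of -1.32, adjusted p = 0.0032, blocked 0.040), and GCLM, a subunit of the first enzyme of glutathione synthesis, fell from 69.7 ± 1.44 RPM down to 40.3 ± 6.53 RPM (adjusted p = 0.018, blocked 0.058). GPX2, a gut-type glutathione peroxidase, had 0 reads in HuCCT1/CD90− and 3 to 9 in HuCCT1/CD90+. With 1 library left out, 1 or 2 genes of this list were called, with 1 without HuCCT1/CD90− replicate 2 or 3 or HuCCT1/CD90+ replicate 3, and NQO1 was called each time (adjusted p at most 0.021). Of 14 glucocorticoid-responsive genes limma called 2 lower and 1 higher, again against 15.1% of all genes, with a median log2 fold change of 0. KLF9 fell from 24.6 ± 11.7 RPM down to 0.560 ± 0.247 RPM (a log2 fold change of -3.92, adjusted p = 0.0084), GLUL, glutamine synthetase, fell to the floor (log2 fold change -1.76, adjusted p = 0.013), and CRISPLD2 rose (log2 fold change 1.02, adjusted p = 0.011). FKBP5, a standard readout of the receptor, was 15.9 ± 2.20 and 15.9 ± 0.747 RPM. Without HuCCT1/CD90+ replicate 3 KLF9 alone was called, and without HuCCT1/CD90− replicate 3 GLUL was lost (adjusted p = 0.051).

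Markers of other cell types went in both directions. Of 12 immune, endothelial and fibroblast markers limma called 6 lower and 1 higher in HuCCT1/CD90+, against 7.49% and 7.59% of all genes, PTPRC and CD3E being at the floor in both lines, with 4 lower and 1 higher under the replicate block, against 4.86% and 5.24% of all genes, where COL3A1 and DCN were lost. These and LUM, genes of fibroblast matrix, were also lost without any 1 of the HuCCT1/CD90+ libraries, whereas CD14, CDH5 and PDGFRB kept their calls. The marker that rose was CD68, a myeloid gene like CD14, from 50.8 ± 4.5 RPM up to 92.2 ± 8.39 RPM (a log2 fold change of 0.85, adjusted p = 0.0089, blocked 0.032), also with each library left out. COL1A1, a collagen gene of fibroblasts, stood at 13.5 ± 2.21 and 14.2 ± 0.186 RPM (log2 fold change 0.078, adjusted p = 0.82). The summed level was 187 to 217 RPM in the HuCCT1/CD90− libraries and 109 to 131 RPM in those of HuCCT1/CD90+. The part of these genes in the results was not tested.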

How the data were processed

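RNA of 3 libraries of each HuCCT1 line was profiled with the Ion AmpliSeq Transcriptome panel, and the authors obtained amplicon read counts from the ampliSeqRNA plugin of the sequencer's server. They deposited RPM values. The submitters' processing notes name hg19, and GENCODE and RefSeq (GRCh38) positions served here only for neighbourhood and promoters. RPM values were whole multiples of 1 read in 100% of cases (tolerance 0.02 reads). Differences were tested on log2(RPM + 1) with limma 3.58.1 in R 4.3.3 (lmFit, eBayes, no filter, two-sided), as the methods of the study name limma. Where no tool stands beside an adjusted p, limma gave it. Alternatives were other pseudocounts, a filter on low values, 2 other scalings, eBayes with trend and robust settings, a replicate block, each library left out, and edgeR 4.0.16 (quasi-likelihood, TMM, filterByExpr) and DESeq2 1.42.0 on recovered reads; scripts were tested on simulated data. Same-numbered libraries deviated together from their line means (r = 0.18 to 0.32 over all genes, other pairs -0.29 to 0.071). On this check alone the numbers were taken as pairs in the replicate block, which is an alternative. The main fit, which gave the counts and adjusted p-values without a named setting, did not use the pairs. The check is weak, because deviations centred within a line push the other pairs down where same-numbered pairs are positive. No pair of libraries of a line was a copy in a chi-square test of reads.

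The members and gene lists were chosen with earlier results of these data known. Named are all members, THY1, MTF1, NR3C1, SLC30A1, called list genes, the 3 nearest neighbours on each side and the 5 genes most like MT2A. NFE2L2, SLC30A9, SLC39A4, SLC39A10, FTL, HMOX1, FKBP5, COL1A1 and the ratios to MT2A were added after their values were seen.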

Additional observations from a re-analysis of the deposited data

How the results depend on the processing

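The number of metallothioneins called by adjusted p, 1 in the main fit, was 0 with a pseudocount of 5 RPM or a minimum fold change of 2, 3 with only genes of a mean of at least 1 RPM, with median centring or with DESeq2, and 2 with edgeR, and with a pseudocount of 0.1 RPM it was 1, with MT3 in place of MT1G. The filter removed MT1G, and its 3 calls were MT1E, MT1M and MT1X. Calls over all genes tested moved as well, from 15.1% to 11.6% with a pseudocount of 5 RPM, 10.1% with the block, 18.8% with median centring, 33.3% with the filter, 34.8% with edgeR and 29.4% with DESeq2, so that the counts of members and lists are to be read against these shares. By the thresholds of the study it was 4, against 2 with a pseudocount of 5 RPM or the replicate block and 1 with a minimum fold change of 2 or after scaling to the locus neighbours. ZnT calls numbered 1 with a pseudocount of 5 RPM or the block and 4 with edgeR. ZIP calls numbered 3 with a mean of at least 1 RPM, median centring or edgeR and 2 with DESeq2. Glucocorticoid calls numbered 5 in these 4 settings. With the replicate block 1 redox gene and 3 neighbours were called. Without 1 library 8.98% to 11.6% of all genes were called, and the calls were 0 to 1 and 1 to 4 for the members, 0 to 2 for ZnT, 1 to 2 for ZIP, 5 to 6 for copper and iron, 1 to 4 for glucocorticoid genes, 1 to 2 for redox genes and 0 to 2 for neighbours. The sign turned for MT1B without HuCCT1/CD90+ replicate 1 (0.00063) and after scaling to the neighbours (0.042), for MT1F under quantile normalization (0.034), after scaling to the neighbours (0.33) and without HuCCT1/CD90− replicate 2 (0.17), HuCCT1/CD90− replicate 3 (0.037) or HuCCT1/CD90+ replicate 3 (0.12), for MT1H without HuCCT1/CD90+ replicate 2 (-0.020), and for MTF1 (0.078) and NR3C1 (0.034) without that library. With 1 library left out, log2 fold changes ran from -0.22 to 0.00063 for MT1B, -0.30 to 0.17 for MT1F, -0.020 to 0.13 for MT1H, -0.25 to 0.078 for MTF1 and -0.16 to 0.034 for NR3C1. The cause was not tested. Depth limits MT1A, MT1B, MT1G, MT1H and MT3, with at most 14 reads in a library.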

Other observations

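The scatter of MT2A between libraries of a line was compared with that of every other gene averaging 10 RPM or more. As a description over 6 libraries, whose values share their library and its scaling, the deviations of MT2A from the line means were closest to those of DFNA5, SCRIB, GSE1, DUSP23 and RALGDS, each with Pearson's r of 0.998 to 0.999 among 8790 genes. Each r rests on 6 values centred within their line, and these genes are the top of a long ranking. A high r therefore does not by itself show shared regulation, which was not tested. Within the family, MT1E followed MT2A with r = 0.93, at rank 410, MT1X with r = 0.40 and MT1L with r = 0.037. Of these 5 genes 1 was called between the lines, where 15.1% of all genes were called. DUSP23, a phosphatase gene, fell from 127 ± 31.2 to 52.7 ± 6.53 RPM between HuCCT1/CD90− and HuCCT1/CD90+ (SD, n = 3 each, log2 fold change -1.23, adjusted p = 0.024 from limma), and SCRIB, a gene of epithelial polarity, was 40.8 ± 4.44 and 57.7 ± 2.97 RPM (log2 fold change 0.49, adjusted p = 0.030, under the minimum fold change). DFNA5, GSE1 and RALGDS had log2 fold changes of -0.63, -0.16 and -0.24 (adjusted p = 0.20, 0.80 and 0.44).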
